A study of Mus musculus with 2 samples.

Results

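The genes examined here encode receptors and channels through which nerve and muscle cells signal. Membership was set by symbol, as GABA-A receptor subunits (Gabr) and AMPA, NMDA and kainate glutamate receptor subunits (Gria, Grin, Grik). Also included were metabotropic glutamate receptors (Grm) and voltage-gated calcium (Cacn) and sodium (Scn) channel subunits. The rule took 83 of the 21951 protein-coding genes in the GENCODE M21 annotation of the mouse. No gene was added or dropped by its own TET2 signal, but the families were chosen with earlier results of these data known. They comprise 19 GABA-A receptor genes, 16 ionotropic and 8 metabotropic glutamate receptor genes, 26 calcium channel genes and 14 sodium channel genes. TET2 occupancy had been measured by chromatin immunoprecipitation sequencing (ChIP-seq) in mouse adipocytes made in culture. Primary adipose-derived stem cells were grown from the stromal vascular fraction of inguinal white adipose tissue, used at passage 3, and differentiated with IBMX, dexamethasone and insulin, followed by insulin for maintenance. The TET2 group held 1 library, immunoprecipitated with an antibody to TET2, and the input group held 1 library of the same kind of chromatin without immunoprecipitation. No genotype or treatment differed between them, and the deposited list gives the 14103 TET2 peaks called in the TET2 library.

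TET2 is a dioxygenase that oxidises 5-methylcytosine to 5-hydroxymethylcytosine, a step on the way to removing DNA methylation. It lacks the CXXC domain with which TET1 and TET3 contact CpG-rich DNA, and it is known to reach many sites through transcription factors. The ion channel genes are best known from the brain, heart and skeletal muscle. Outside the nervous system many neuronal genes are held silent by the repressor REST, which binds a DNA element called RE1, and several channel genes carry that element. A TET2 peak says nothing of whether a gene is transcribed, and no expression was measured in these 2 libraries.

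Each peak was placed by its midpoint, on GRCm38 (mm10). It was counted near a gene when it lay within 1 kb of any annotated transcription start site (TSS) of that gene, then when it lay 1 to 3 kb away, then when it lay elsewhere in the gene body. Peak strength is given as the deposited −log10 p against input, so a larger value means a less likely pile of reads. Peaks in the list spanned 375 to 3392 bp, with 3.071 as the smallest −log10 p, 335.2 as the largest and 6.21 in the middle. The paper's reporting summary states a peak-calling p setting of 1e-05, a −log10 p of 5. Even so, 2182 peaks have a value under 5, and the reason is not known. As few as 632 different values of −log10 p occur among the 14103 peaks, and 1497 peaks share 5.13, so peaks with like values cannot be ranked. There is no replicate library, so no value below has a replicate error, no test was made, and every interval covers counting error only. The list gives no read totals. The paper's reporting summary gives an amount of paired-end sequence but not how it divides between the libraries, so the depth of each library is unknown.

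The sequences under the strongest peaks near these TSSs were rich in CpG, the substrate context of DNA methylation. The 4 peaks within 1 kb of a channel gene TSS with the largest −log10 p lay at Cacnb2, Cacna1g, Gabra5 and Gabrg3. They are shown because they carry the strongest calls and let the CpG density be seen base by base. Each is the longest stretch free of annotated untranslated sequence in the 300 bases about the peak midpoint, read on the strand of the gene, with every CpG in capitals. The Cacnb2 stretch (chr2:14604451-14604583, plus strand) has 16 CpGs in 133 bases. The Cacna1g stretch (chr11:94473341-94473617, minus strand) has 28 in 277 bases. Gabra5 (chr7:57509537-57509739, minus strand) has 20 in 203 bases and Gabrg3 (chr7:57386595-57386773, minus strand) has 16 in 179 bases. The first, second and last of these open on the ATG of a coding exon.
Cacnb2: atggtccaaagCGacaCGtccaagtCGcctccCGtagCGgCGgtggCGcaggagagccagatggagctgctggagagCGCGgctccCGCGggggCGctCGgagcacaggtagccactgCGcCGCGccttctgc
Cacna1g: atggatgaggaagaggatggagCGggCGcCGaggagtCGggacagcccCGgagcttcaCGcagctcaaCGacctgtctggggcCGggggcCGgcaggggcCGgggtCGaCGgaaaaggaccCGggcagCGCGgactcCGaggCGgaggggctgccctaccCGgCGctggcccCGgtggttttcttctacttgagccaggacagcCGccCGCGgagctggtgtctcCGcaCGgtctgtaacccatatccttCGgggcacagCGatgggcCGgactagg
Gabra5: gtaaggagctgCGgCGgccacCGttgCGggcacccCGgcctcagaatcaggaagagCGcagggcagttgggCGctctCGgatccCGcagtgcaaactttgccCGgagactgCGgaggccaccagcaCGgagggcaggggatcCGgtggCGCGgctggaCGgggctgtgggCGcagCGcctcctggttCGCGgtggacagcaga
Gabrg3: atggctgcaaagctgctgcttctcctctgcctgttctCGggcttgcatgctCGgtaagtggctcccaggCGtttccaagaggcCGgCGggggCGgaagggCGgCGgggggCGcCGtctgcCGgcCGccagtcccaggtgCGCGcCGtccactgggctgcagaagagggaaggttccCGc
The CpG ratio is the number of CpGs over that expected from the C and G content. In these stretches it was 0.967 at Cacnb2, 0.850 at Cacna1g, 0.815 at Gabra5 and 0.741 at Gabrg3. Within 150 bp of the peak midpoints, untranslated bases included, it was 0.930, 0.791, 0.901 and 0.669 in the same order. Peaks within 1 kb of any protein-coding TSS had a median of 0.811, so Cacna1g and Gabrg3 lay below it and Cacnb2 and Gabra5 above.

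A peak lay within 1 kb of a TSS in 30 of the 83 channel genes, or 36.1% (exact 95% binomial interval 25.9% to 47.4%). Among all protein-coding genes the share was 24.6%. A further 7 channel genes, 8.43% (3.46% to 16.6%), had their nearest peak 1 to 3 kb from a TSS, against 3.94% of all protein-coding genes. The gene body alone held a peak in 18 channel genes, 21.7% (13.4% to 32.1%), against 7.93%. In all, 55 of 83 genes, 66.3% (55.1% to 76.3%), had a peak in some class, where all protein-coding genes had 36.4%, and 28 had none. These genes drew on 93 different peaks, 33 of them within 1 kb, 7 at 1 to 3 kb and 53 in gene bodies. More than 1 peak was found in 23 genes. No like count was made for all protein-coding genes, so it is not read as a trait of the channel genes.

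Channel genes are long and carry more TSSs than most genes, and both widen the target. The median channel gene spanned 110500 bp and had 4 TSSs, while other protein-coding genes had medians of 17320 bp and 3 TSSs. Their highest CpG ratio at any TSS had a median of 0.626, next to 0.627 in other genes. When each channel gene was given the share of other genes with a like number of TSSs and a like CpG ratio, 26.7% (22.1 genes) would have had a peak within 1 kb, a value inside the observed interval. The observed count was 1.36 times that number. Gene length moved the comparison most, since other genes of like length had a peak within 1 kb in 34.4%, and the observed share was then 1.05 times the expected. For the class of 1 to 3 kb, 4.45% was expected from TSS number and CpG ratio, and 3.81% from gene length and CpG ratio, both within the observed interval. For the gene body alone, 9.08% was expected from TSS number and CpG ratio, below the observed interval, and the observed count was 2.39 times that. Genes of like length and CpG ratio gave 18.9%, inside it. For a peak in any class, 40.2% was expected from TSS number and CpG ratio and 52.6% from gene length and CpG ratio, both below the observed interval, while gene length alone gave 55.6%, inside it.

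**Figure D1:**
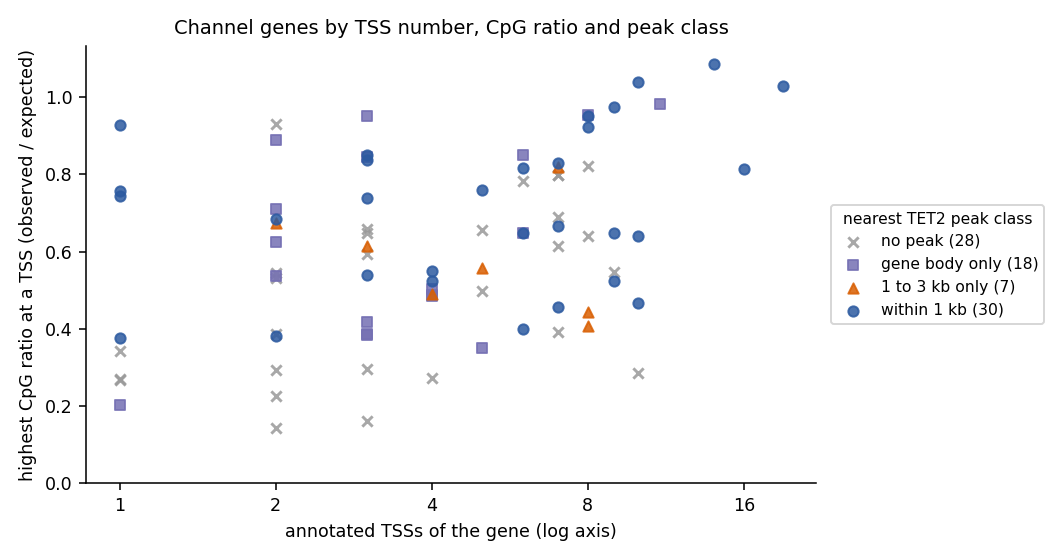
Each of the 83 channel genes is plotted by its number of annotated TSSs (log axis) and the highest CpG ratio within 500 bp of any TSS, with the symbol giving the class of its nearest TET2 peak. Genes with a peak within 1 kb (30) are spread over the whole range of TSS numbers, and 9 of the 12 genes with 9 or more TSSs have one.

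Among the channel genes a peak near a TSS was more frequent at high CpG ratio, with a less even course over TSS number. By groups of CpG ratio set over all genes, a peak within 1 kb was found in 0 of 3 channel genes of the lowest group, 5 of 24, 9 of 27, 8 of 14 and 8 of 15 of the highest. Other protein-coding genes rose through the same groups from 1.71% to 44.9%. By number of TSSs, 4 of 8 channel genes with a single TSS had a peak within 1 kb, namely Grik3, Grm3, Cacng2 and Scn4b. In genes with 2 TSSs the count was 2 of 14, and in genes with 9 or more it was 9 of 12, where other genes had 14.5% with 1, 16.5% with 2 and 39.2% with 9 or more.

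The share depended on which TSSs were counted. At the 5′ end of the gene, meaning its outermost annotated start, 17 of 83 channel genes had a peak within 1 kb, or 20.5% (12.4% to 30.8%), and all protein-coding genes had 20.1%. These are also the shares within 1 kb when each gene is given its 5′ end as its sole TSS, so the difference from all genes lay at the other TSSs. At another TSS and not at the 5′ end, 13 channel genes had a peak, or 15.7% (8.61% to 25.3%), against 4.43% of all protein-coding genes. That interval lies above the background share. It also lies above the 5.37% (4.45 genes) expected from other genes of like TSS number and CpG ratio. Genes of like length gave 7.91% (6.56 genes), below the interval but close to its lower end. Gene length and TSS number were not allowed for together, and this count was not repeated with stronger peaks only. The 13 genes include Cacna2d4, whose peak also lay 63 bp from a TSS of another coding gene, Lrtm2, and cannot be assigned between them. They also include Cacna1c (4.60) and Scn3b (4.12), whose peaks had a −log10 p under 5. This split was made after the counts had been seen. In 4 of the 13 genes, Cacnb2, Cacnb4, Grin2b and Scn8a, the peak lay only 1 to 3 kb inside the 5′ end. In the other 9, or 10.8% (5.08% to 19.6%) where all genes had 3.13%, it lay 3.88 to 441.5 kb inside. With the second peak of Cacna1b there were 12 peaks over 3 kb inside, 6 in introns, 5 in coding exons and 1 in an untranslated exon, and 4 of them lay over 1 kb from the TSS of any coding transcript of the gene.

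**Figure D2:**
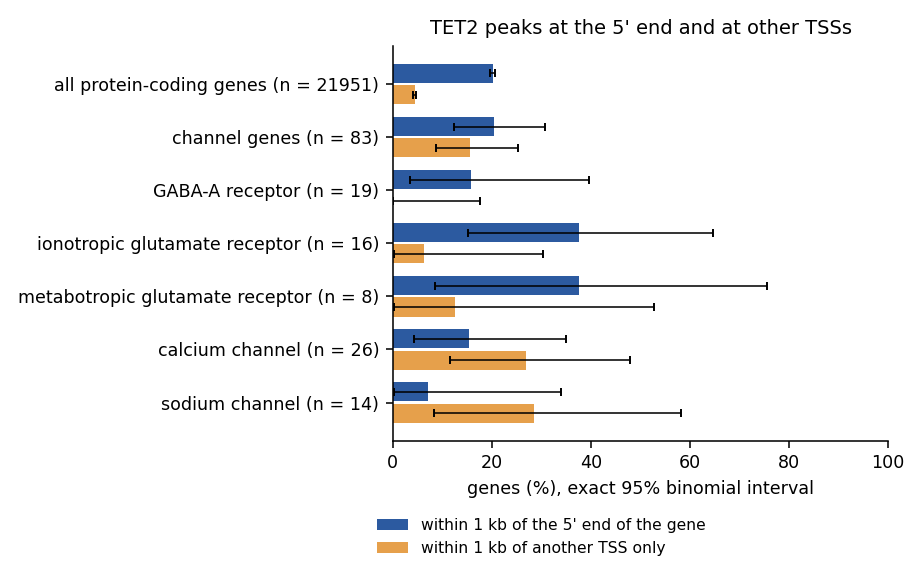
Bars give the percentage of genes with a TET2 peak within 1 kb of the 5′ end and of those with a peak within 1 kb of another TSS only, with exact 95% binomial intervals, for all protein-coding genes, the 83 channel genes and each family. At 5′ ends the channel genes (20.5%) sit beside all genes (20.1%), and at other TSSs the calcium (26.9%) and sodium (28.6%) channel bars are longer than the 4.43% of all genes.

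The share varied between families, with wide intervals. Within 1 kb of a TSS a peak was found in 3 of 19 GABA-A receptor genes (15.8%, 3.38% to 39.6%), 7 of 16 ionotropic glutamate receptor genes (43.8%, 19.8% to 70.1%) and 4 of 8 metabotropic glutamate receptor genes (50.0%, 15.7% to 84.3%). Calcium channel genes had 11 of 26 (42.3%, 23.4% to 63.1%) and sodium channel genes 5 of 14 (35.7%, 12.8% to 64.9%). From TSS number and CpG ratio, 20.95% was expected for GABA-A receptors, 29.7% for ionotropic and 24.0% for metabotropic glutamate receptors, 32.6% for calcium and 21.4% for sodium channels. Each expected share lay inside its family's interval. The family intervals overlap one another, and the differences between families were not tested.

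**Figure D3:**
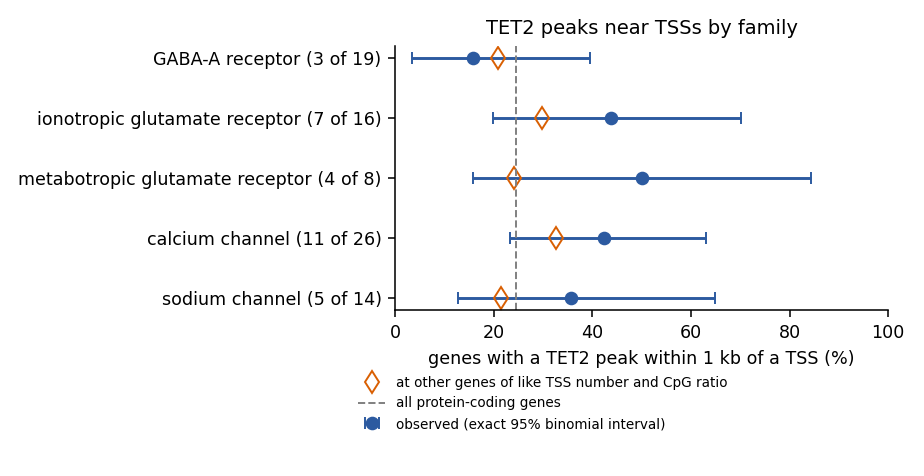
For each family the point is the percentage of genes with a TET2 peak within 1 kb of a TSS, the bar its exact 95% binomial interval and the open diamond the percentage expected from other genes of like TSS number and CpG ratio, with the dashed line at the 24.6% of all protein-coding genes. GABA-A receptors lie left of their diamond and the other 4 families right of theirs, with every diamond inside its interval.

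GABA-A receptors are chloride channels and carry most fast inhibition in the brain. Their 3 genes with a peak near a TSS encode the alpha subunits Gabra5 and Gabra2 and the gamma subunit Gabrg3, all at the 5′ end. The Gabra5 peak had a −log10 p of 11.6 and its midpoint lay 315 bp before the nearest Gabra5 TSS, inside an intron of the gene. Gabrg3 had a −log10 p of 10.97 in a coding exon 127 bp after its TSS, and Gabra2 had 7.34, 222 bp before its TSS. In the list, 513 of the 14103 peaks had a larger value than the Gabra5 peak.

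The other GABA-A receptor genes had weaker peaks or none. In the cluster on chromosome 5 the peaks were at Gabra2 (near the TSS, plus a weak body peak of 3.16) and in the bodies of Gabrg1 and Gabrb1 (4.12 each), with none at Gabra4. On chromosome 11 a peak lay 1.09 kb before Gabrb2 (6.21), and Gabra6 and Gabrp had none. The 3 genes on the X chromosome, Gabre, Gabra3 and Gabrq, had none either, and neither did the rho subunit genes Gabrr1, Gabrr2 and Gabrr3 or the delta subunit gene Gabrd.

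Ionotropic glutamate receptors are cation channels opened by glutamate. Among NMDA receptor genes, Grin1 encodes the subunit that every NMDA receptor needs, and its peak (−log10 p 5.19) lay 37 bp after a TSS with a CpG ratio of 1.16, the highest of any channel gene peak near a TSS. Grin3a had the strongest NMDA call, 10.8, over a peak of 1315 bp, the longest among the channel genes. Grin2b had 6.80, with the peak midpoint 496 bp before a TSS and 1.13 kb inside the 5′ end. Grin2a had no peak in any class, Grin2c and Grin2d had body peaks only, and Grin3b had a peak of 4.62 at 2.27 kb from a TSS.

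In the kainate and AMPA receptor genes the peaks near a TSS were all at the 5′ end. The kainate receptor genes Grik1, Grik2 and Grik3 had −log10 p of 7.21, 4.73 and 4.25, each within 189 bp of a TSS. Gria4 (5.13, 97 bp after a TSS) was the sole AMPA receptor gene with a peak near a TSS. The other AMPA genes were Gria1, with 2 body peaks of 5.13 each, and Gria2 and Gria3, with none. At Gria2, the AMPA subunit whose RNA editing sets calcium permeability, the peak nearest to any TSS lay 654234 bp away.

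Metabotropic glutamate receptors are G protein-coupled receptors, and 4 of the 8 had a peak near a TSS. Grm4 had 3 such peaks, at 8.85, 6.24 and 4.15, none of them at its 5′ end. They lay 18.6, 8.70 and 48.3 kb inside the gene, so each is nearest to a different start. The peaks of Grm3, Grm5 and Grm7 were at the 5′ end, with 6.21, 6.21 and 5.89. Grm2 had a peak of 6.62 in an intron, 1.41 kb from a TSS. Grm6 and Grm8 had no peak.

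Calcium channels join a pore-forming alpha1 subunit to alpha2delta and beta subunits that set its trafficking and gating. The strongest call at any of the 83 genes was at Cacnb2, which encodes a beta subunit known from cardiac L-type channels. Its peak (chr2:14604145-14604722) had a −log10 p of 14.4, exceeded by 148 peaks in the list, and lay in an untranslated exon 127 bp after a TSS and 1345 bp inside the 5′ end. Cacnb1 (9.08) and Cacnb4 (8.51) also had peaks at a start other than the 5′ end, and Cacnb3 had none. The beta subunits had a peak in 3 of 4 genes (interval 19.4% to 99.4%), where 41.0% was expected from TSS number and CpG ratio.

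The alpha1 genes had a peak near a TSS in 5 of 10. Cacna1g, the pore of a T-type channel, had 11.9 at its 5′ end in a coding exon. Cacna1b, the pore of the N-type channel that triggers transmitter release, had 5.21 at its 5′ end and 6.24 in a peak 98.2% of the way along the gene, 704 bp after another start. The L-type genes Cacna1c (4.60), Cacna1d (6.21) and Cacna1s (6.06) had their peaks near a TSS at internal starts only. The midpoints of these peaks lay 88.8, 441.5 and 52.8 kb from the 5′ end, and Cacna1c and Cacna1d had body peaks as well. At Cacna1d and Cacna1s the start is not that of a protein-coding transcript, and the nearest such TSS was 303.0 and 32.0 kb away. Cacna1h had 7.98 in a coding exon 2.65 kb from a TSS, Cacna1a and Cacna1i had body peaks only, and Cacna1e and the X-linked Cacna1f had none.

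Among the remaining calcium channel genes, Cacna2d2 had 7.91 at its 5′ end. The peak at Cacna2d4 (9.98) lay 75 bp before an internal start but 63 bp from a TSS of Lrtm2, another coding gene, and the 2 assignments cannot be told apart. Cacna2d1, whose product binds gabapentin, had a body peak of 4.12, and Cacna2d3 had none. Of the 8 gamma subunit genes, Cacng2, which encodes the AMPA receptor partner stargazin, had 4.95 at its 5′ end. Cacng7 had 6.16 at 1.61 kb, Cacng5 and Cacng8 had body peaks, and Cacng1, Cacng3, Cacng4 and Cacng6 had none.

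Sodium channel alpha subunits form the pore that starts the action potential, and their peaks lay mostly away from the 5′ end. Of the 5 sodium channel genes with a peak near a TSS, 3 alpha and 2 beta, 4 had it at another start only (interval 28.4% to 99.5%). Among all protein-coding genes with a peak within 1 kb the share was 18.03%, with no allowance for TSS number or gene length. Scn4a, the skeletal muscle channel, had 8.31 in a peak 15 bp before a start and 3.88 kb inside the gene. Scn8a, a channel of neurons, had 6.18 at 1.42 kb inside. The beta subunit genes Scn3b and Scn4b had 4.12 at an internal start and 6.98 at the 5′ end, while Scn2b had none.

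The alpha subunit cluster on chromosome 2 had a peak in each of its 5 genes and none of them within 1 kb of a TSS. Scn1a, mutated in Dravet syndrome, had 10.0 in an intron 2.53 kb before a TSS and a body peak of 7.16, of which 94.1% was repeat-masked. Scn2a had 4.84 at 2.37 kb, and Scn3a (5.13), Scn9a (6.21) and Scn7a (6.21) had body peaks. All of these genes have low CpG ratios, from 0.204 at Scn7a to 0.502 at Scn9a. The sensory neuron channel genes Scn10a and Scn11a, on chromosome 9, had none.

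In 28 genes no class held a peak. The peak nearest to any of their TSSs was 9.32 to 712.7 kb away, with a median of 95.1 kb. Their median CpG ratio was 0.537 and their median length 54580 bp, where the 30 genes with a peak within 1 kb had 0.741 and 167700 bp. All 5 X-linked channel genes, Cacna1f, Gria3, Gabre, Gabra3 and Gabrq, were among them. The X chromosome was sparse throughout, with 66 of 948 coding genes (6.96%) having a peak within 1 kb. Leaving out the X-linked genes, the share of channel genes with a peak within 1 kb was 38.5%. The same share was not taken for all protein-coding genes. The 24.6% of all protein-coding genes includes the sparse X chromosome and is not a like measure for the 38.5%.

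The 7 genes whose nearest peak lay 1 to 3 kb from a TSS were Scn1a, Cacna1h, Grm2, Gabrb2, Cacng7, Scn2a and Grin3b. In all of them but Gabrb2 the peak lay over 3 kb inside the 5′ end. These peaks had a median CpG ratio of 0.247 within 150 bp of their midpoints, and peaks in this class at all protein-coding genes had 0.479. With the RefSeq annotation only 2 channel genes fell in the class, 2.41% against 3.16% of all RefSeq coding genes, so the count rests on the TSSs annotated by GENCODE.

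**Figure D4:**
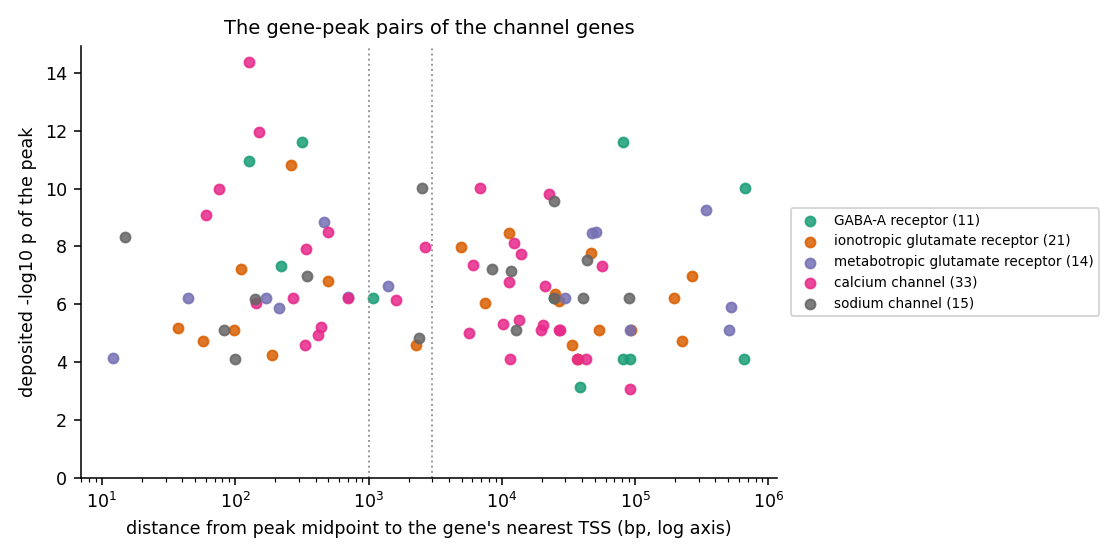
Each point is a gene and peak pair (94 pairs), placed by the distance of the peak midpoint from the nearest TSS of the gene (log axis, dotted lines at 1 and 3 kb) and by the deposited −log10 p, and coloured by family. The values of 14.4 at Cacnb2, 11.9 at Cacna1g and 11.6 at Gabra5 lie at 127, 151 and 315 bp from a TSS, a peak that falls to more than 1 gene is drawn for each, and the points within 1 kb run from 4.12 to 14.4.

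Peaks near channel gene TSSs were ordinary in strength for the list. The 33 peaks within 1 kb had a median −log10 p of 6.24 (order-statistic 95% interval 5.89 to 7.91), while the 5170 peaks within 1 kb of any protein-coding TSS had 6.83. Of the 33 channel gene peaks, 6 had a value under 5. Their midpoints lay 12 to 704 bp from the nearest TSS of the gene, with a median of 170 bp, and 24 of 33 lay at it or downstream. By annotation 10 fell in untranslated exons, 9 in coding exons, 12 in introns and 2 outside the gene. A coding transcript started within 1 kb of 29 of them, and another gene started within 1 kb of 7, a coding one in a single case (Lrtm2).

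Their GC content was like that of other promoter peaks and their CpG ratio was lower. Within 150 bp of the midpoint on each side the median GC content was 68.1% at channel genes and 67.8% at all protein-coding genes. The median CpG ratio was 0.711 (0.618 to 0.791) at channel genes and 0.811 (0.804 to 0.817) at all protein-coding genes. CpG ratio moved with position, and its part in this difference was not tested. The 17 channel gene peaks at 5′ ends had a median CpG ratio of 0.779 and the 16 at other starts 0.683. All protein-coding genes showed the same order, with 0.831 at 5′ ends and 0.673 at other starts.

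Motifs of 3 transcription factors were searched within 150 bp of the peak midpoints, and in each case the share at other promoter peaks lay within the interval of the channel genes. SP1 is a general activator of CpG-rich promoters, C/EBP proteins drive adipocyte differentiation, and AP-2 binds GC-rich elements. The letters GGGCGG, bound by SP1, were present on either strand in 17 of 33 peaks (51.5%, 33.5% to 69.2%) and in 59.4% of peaks at all protein-coding TSSs. The C/EBP letters TTGCNNAA were in 1 of 33 (3.03%, 0.0767% to 15.8%) and in 4.31%. The AP-2 letters GCCNNNGGC were in 10 of 33 (30.3%, 15.6% to 48.7%) and in 38.0%. In windows of the same length about every TSS of all protein-coding genes, occupied or not, these shares were 38.9%, 8.61% and 19.9%. Each search is a match of letters and does not show a bound factor.

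The RE1 element was searched as its conserved parts CAGCACC and GGACAG with 2 bases between them, on both strands. It occurred in a window within 150 bp of a TSS in 2 of the 83 channel genes (2.41%), Grin1 and Scn3b, and in 21 of the 21868 other protein-coding genes (0.0960%). Of all 14103 peaks, 9 held it within 150 bp of the midpoint. At Grin1 it lay inside the TET2 peak, 33 bp from the midpoint and 162 bp from the 5′ end. It is printed here, on the minus strand of chr2:25319010-25319039, since it is the single channel gene peak that held the element, with its parts in capitals.
Grin1: tacgcttCAGCACCtcGGACAGcacccgcc
At Scn3b the element lay 534 bp from the 5′ end but 9591 bp from the midpoint of the nearest peak and outside it, so the Scn3b peak does not cover it. These windows hold strict matches, and elements with other spacing or with changed bases were not searched.

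In gene bodies over 3 kb from any TSS of the gene, the channel genes had 54 gene and peak pairs in 15.04 Mb, or 3.59 per Mb (exact 95% Poisson interval 2.70 to 4.68). Other protein-coding genes had 4.49 per Mb (4.35 to 4.63), but long genes had fewer per Mb, and other genes of like length would have given 54.9 pairs (3.65 per Mb). The observed count was 0.983 times that. By family the density was 2.62 per Mb in GABA-A receptors, 3.34 in ionotropic and 2.33 in metabotropic glutamate receptors, 4.32 in calcium and 7.42 (3.21 to 14.6) in sodium channels. For sodium channels 3.97 per Mb was expected at like length, within that interval.

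**Figure D5:**
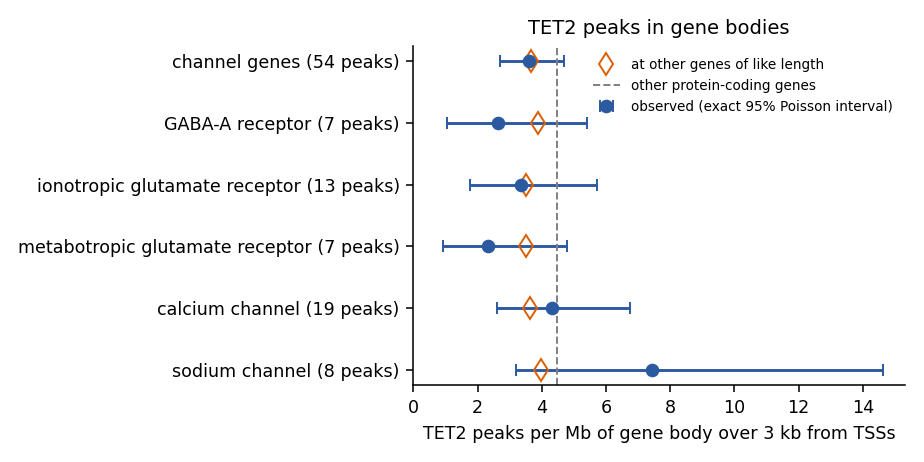
Points give TET2 peaks per Mb of gene body over 3 kb from the TSSs of the gene, with exact 95% Poisson intervals, for the channel genes and each family. Open diamonds give the density of other genes of like length and the dashed line that of all other protein-coding genes (4.49 per Mb), and each diamond lies within its interval.

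The body peaks were spread over 37 genes, and 17 of these also had a peak within 1 kb of a TSS. Grik3, Grik4, Cacna1c, Cacna1d and Cacna1i had 3 each, and Cacnb4, Grm5, Grm7, Gabrg3, Gria1, Grin2d and Scn8a had 2 each. At Cacna1c, the cardiac L-type pore, the body peaks had −log10 p of 9.80, 6.63 and 5.32. The 6.63 peak lay 5 bp from the TSS of Dcp1b, a gene for mRNA decapping, and the 6.76 peak in Cacna1d lay 112 bp from that of its relative Dcp1a. In all, 4 of the 54 pairs fell within 1 kb of a TSS of another coding gene, among them a peak of 4.12 inside Grin3a at Ppp3r2. Strong body peaks of 10.0 lay at Cacna1b in a coding exon and at the far end of Gabrg3 in an untranslated exon. Grm7 had 9.27 and 8.51, in peaks that were 100.0% and 84.9% repeat-masked.

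Body peaks lay in exons more often than exon length alone would give, in channel genes and in other genes. Exons make up 3.13% of the channel gene body bases and held 18 of the 54 midpoints, 33.3% (21.1% to 47.5%), of which 13 were in coding exons. In other protein-coding genes exons make up 6.20% of bases and held 34.7% of midpoints. Median −log10 p was 6.21 both at channel genes and in all protein-coding gene bodies, with a median CpG ratio of 0.412 and 0.369. Repeat-masked sequence made up 80% or more of 6 of the 53 body peaks (11.3%, against 11.5% in all protein-coding genes) and of none of the 33 near a TSS.

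Related gene lists give a scale for these shares. Of 65 other genes of glutamate and GABA signalling and of channel regulation, such as transporters, scaffolds and auxiliary proteins, 22 had a peak within 1 kb of a TSS, or 33.8% (22.6% to 46.7%), where 32.4% was expected from their TSS number and CpG ratio. The strongest of these was Gem, a small GTPase that inhibits calcium channels through their beta subunits, with a −log10 p of 16.8. Of the 94 potassium channel genes (Kcn), 37 had one, or 39.4% (29.4% to 50.0%). The 25.2% expected from TSS number and CpG ratio lay below that interval, but gene length was not allowed for in these lists. The intervals of all 3 lists overlap. Of 10 adipocyte marker genes 1 had a peak within 1 kb (Lep, 11.2), and of 10 neuron marker genes 3 had one (Map2, Snap25 and Syt1), where 1.86 and 3.35 genes were expected from TSS number and CpG ratio, and since a peak is not a measure of expression the cell type could not be checked from these data.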

How the data were processed

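TET2 ChIP-seq was made from 1 library and an input of 1 library. The authors deposited 1 peak list with each peak's position and its −log10 p against input, and no counts. The submitters' processing notes name Bowtie, MACS2 2.1.0 and mm10, while the methods name other builds. All peaks lie within GRCm38 chromosomes, and starts were read as counting from 1. Channel genes, lists and splits were chosen with earlier results of these data known, and the split by 5′ end and the allowance for gene length were added after the counts were seen.

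Genes and TSSs came from GENCODE M21. Expected shares are those of other protein-coding genes in the same group of TSS number (1, 2, 3 to 4, 5 to 8, 9 or more) and of 5 groups of the highest CpG ratio within 500 bp of a TSS, or in 10 groups of length. Named genes are those with a peak within 1 kb or 3 kb, those with most body peaks and those with the strongest peaks, and the others appear as family members without a peak or with body peaks. Intervals are exact at 95%. Python 3.11.15, pandas 2.3.3, scipy 1.17.1, statsmodels 0.14.6 and pysam 0.24.0 were used, and the methods were tested on simulated data. The input library was not analysed on its own. Alternatives covered peak strength, repeats, annotation, windows and covariates. Some genes of these families are counted but not reported by name here.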

Additional observations from a re-analysis of the deposited data

How the results depend on the processing

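No paired analysis was possible because the peak list rests on a single immunoprecipitated library, and nothing here was tested. Of 94 alternative values, 82 stayed within the interval of the value reported and 12 did not. With peaks of −log10 p of at least 5, 25 of 83 channel genes (30.1%) had one within 1 kb, against 22.1% of all protein-coding genes. With peaks of −log10 p of at least 8, the shares of channel genes fell to 12.0% within 1 kb (all protein-coding genes 7.61%), 1.20% at 1 to 3 kb (1.29%, so no longer above all genes), 8.43% in the body alone (2.92%) and 21.7% in any class (11.8%), and body density to 0.665 per Mb. With 1 TSS per gene, the 5′ end, the share within 1 kb was 20.5% and that in the body alone 39.8% (all protein-coding genes 20.1% and 12.5%), the peaks at other starts passing to the body. RefSeq genes gave 2.41% at 1 to 3 kb, under the 3.16% of all RefSeq genes, so that excess depends on the annotation. Counting also genes with a nearer peak, 44.6% had a body peak (all protein-coding genes 13.0%). Windows of 100 bp each side gave C/EBP letters in 0 of 33 peaks near a TSS, which leaves up to 10.6% possible (exact 95% bound), so 0% there, and AP-2 letters in 15.2%, and windows of 250 bp gave the right RE1 part in 41.5% of body peaks. The ratio of observed to expected within 1 kb was 1.05 to 1.41 over its alternatives, and that at 1 to 3 kb 1.89 to 2.37. The missing replicate, the unknown depth of each library and the coarse −log10 p limit every value.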
